A study of Mus musculus with 6 samples.

Results

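Apoo encodes a subunit of the MICOS complex, the protein assembly that holds the inner mitochondrial membrane in its folded shape. The group described here is Apoo and 6 genes that work beside it, Apool, Immt, Chchd3, Chchd6, Samm50 and Opa1. The 7 genes were taken by symbol from a table of 35275 genes, and all 7 were found. Apoo was picked because its level in Aim2 KO tongues was low in this same comparison. Its difference is therefore a description, and the p-values and intervals printed for Apoo are no test of the genotypes. The other 6 were added as its partners in the complex.

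RNA from mouse tongues was sequenced in bulk. There were 3 libraries from Aim2 KO mice and 3 from WT mice, Aim2 being a cytosolic sensor of double-stranded DNA. All 6 came from mice that had taken 4NQO, a DNA-damaging oral carcinogen, at 100 µg/ml in their drinking water for 20 weeks, so the groups share the carcinogen and no unexposed tongue is among them. The labels give neither the strain nor the sex of the mice, nor the exons that the Aim2 KO lacks, nor whether the libraries come from separate mice, and p-values therefore measure the spread between these libraries. Library names share a stem within each genotype, and the labels do not say what it stands for. A source shared within a genotype could not be told apart from the genotype. The libraries held 21959204 to 24994421 reads in Aim2 KO and 24273320 to 25369400 reads in WT. Aim2, the targeted gene, had 3, 4 and 10 reads in Aim2 KO and 14, 25 and 30 reads in WT, low counts in every library.

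In muscle and epithelial cells the inner mitochondrial membrane is thrown into cristae, the folds that carry the respiratory chain and ATP synthase. MICOS sits at the narrow neck of each fold and ties it to the outer membrane through the SAM complex. OPA1, a GTPase of the inner membrane, fuses inner membranes and keeps the necks of the folds tight. Immt and Chchd3 form the core of the MICOS arm that reaches the outer membrane, Chchd6 is a paralog of Chchd3, and Apoo and Apool are related subunits that belong to the apolipoprotein O family. Cardiolipin is the lipid typical of the inner membrane, and Apool binds it.

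Apoo lies on chromosome X from 94367117 to 94417093 on the plus strand, coordinates that the deposited table and GENCODE M21 (GRCm38) give alike. GENCODE M21 lists 4 transcripts for it, all of them coding, and the longest has 9 exons, 1218 bases and a coding part of 636 bases. A processed pseudogene, Apoo-ps, lies on chromosome 13, and its annotated transcript of 586 bases matches the coding part of Apoo without a mismatch or a gap over all 586 bases. The other 632 bases of the Apoo transcript lie outside this match. The stretch below is shown because reads from it cannot be placed by sequence alone. It covers 90 bases of the coding part from coding base 115 onward, which in Apoo are split between exon 2 (chrX:94379989-94380033, lower case) and exon 3 (chrX:94382111-94382155, capitals), and in Apoo-ps run without a break (chr13:107414576-107414665, minus strand). Both are from GENCODE M21 transcripts (GRCm38), read 5′ to 3′.
Apoo: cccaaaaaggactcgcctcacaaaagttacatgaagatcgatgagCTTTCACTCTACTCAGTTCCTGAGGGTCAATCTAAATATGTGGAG
Apoo-ps: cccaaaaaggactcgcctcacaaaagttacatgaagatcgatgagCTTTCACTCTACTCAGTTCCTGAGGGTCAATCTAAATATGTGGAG

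How reads that match both places were counted is not given in the sources used here. Apoo held 388, 700 and 537 reads in Aim2 KO replicates 1 to 3, against 1010, 1055 and 932 reads in WT replicates 1 to 3. Apoo-ps held 2, 3 and 5 reads in Aim2 KO and 3, 11 and 4 reads in WT. Apoo-ps thus had between 0.297% and 1.04% as many reads as Apoo in any library. With the reads of both added, the libraries held 390, 703 and 542 reads in Aim2 KO, against 1013, 1066 and 936 reads in WT, and the groups did not overlap. Because Apoo-ps held so few reads, the sum had to follow Apoo, the gene chosen on these values. Reads discarded for matching both places would be in neither count.

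Apoo was at 14.1, 23.0 and 20.1 FPKM (reads scaled by the length of the gene and the total of the library) in Aim2 KO replicates 1 to 3, against 33.7, 35.7 and 30.2 FPKM in WT replicates 1 to 3. All 3 Aim2 KO libraries lay below all 3 WT libraries, and the highest Aim2 KO value stood clear of the lowest WT value. The means were 19.1 ± 4.52 FPKM in Aim2 KO and 33.2 ± 2.80 FPKM in WT (SD, n = 3 each), a ratio of 0.574. The log2 difference, Aim2 KO minus WT on the log2(FPKM + 1) scale, was -0.79. Exact Poisson intervals (95%), which cover counting error alone, ran from 649 to 754 reads for the Aim2 KO library with the most Apoo reads, replicate 2, and from 873 to 994 reads for the WT library with the fewest, replicate 3. These counts are not scaled to the depth of the library. Because Apoo was chosen on these values, the intervals are no test of the genotypes. In bulk tissue, fewer cells of a type and less RNA per cell cannot be told apart.

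The fit covered 12144 genes whose mean reached 1 FPKM, and all 7 cristae organisers were among them. Of the 7, 0 passed the threshold of 0.05 (limma with Benjamini-Hochberg adjustment), against 0.00823% of all genes tested. Of all genes tested, 234 were higher and 70 lower at an unadjusted p under 0.05. Groups that did not overlap, with Aim2 KO lower, were seen for 1 of the 7, Apoo itself, against 1.48% of all genes tested (6.46% in either direction). This share is given beside Apoo for scale, since the comparison is the one Apoo was chosen from.

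**Figure D1:**
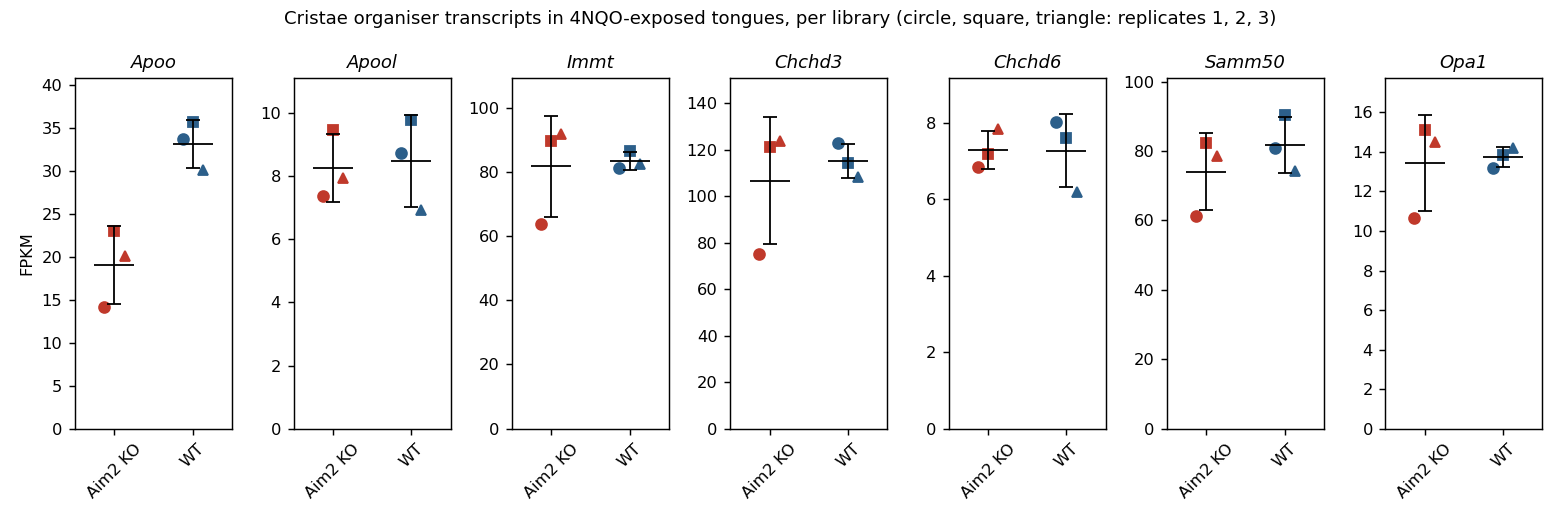
FPKM (y axis, from 0, a scale of its own in each panel) of the 7 cristae organisers in the 3 Aim2 KO libraries (red) and the 3 WT libraries (blue), with bars for mean and SD. Apoo shows groups that do not overlap, at 14.1 to 23.0 FPKM in Aim2 KO and 30.2 to 35.7 FPKM in WT, and the groups overlap for the other 6.

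Apool, the X-linked paralog of Apoo, was less abundant per length. It was at 7.36, 9.46 and 7.95 FPKM in Aim2 KO and at 8.73, 9.79 and 6.91 FPKM in WT. The groups overlapped through their whole range, with a log2 difference of -0.03 (95% interval of the fit -0.37 to 0.32, limma adjusted p = 0.99977). Apoo transcripts outnumbered Apool per length by 1.92, 2.43 and 2.53 to 1 in Aim2 KO replicates 1 to 3 and by 3.86, 3.65 and 4.36 to 1 in WT replicates 1 to 3. The size of these ratios rests on the deposited gene lengths, 1218 bases for Apoo and 2441 bases for Apool. In GENCODE M21 the longest coding Apool transcript has 1359 bases.

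Immt encodes mitofilin, the large scaffold subunit of MICOS. It was at 63.6, 89.7 and 91.9 FPKM in Aim2 KO and at 81.1, 86.5 and 82.5 FPKM in WT. Aim2 KO replicate 1 was the lowest of the 6 and the other two Aim2 KO libraries were the highest, and the log2 difference was -0.05 (interval -0.41 to 0.32, limma adjusted p = 0.99977). Apoo as a share of Immt was 22.2%, 25.6% and 21.9% in Aim2 KO, against 41.6%, 41.3% and 36.6% in WT. In this ratio Aim2 KO replicate 1 lay between the other two Aim2 KO libraries, although its Apoo and Immt levels were each the lowest of all.

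The CHCH-domain pair differed widely in level. Chchd3, which links Immt to the outer membrane, was the most abundant of the 7, at 75.3, 121 and 124 FPKM in Aim2 KO and 123, 114 and 108 FPKM in WT. The log2 difference was -0.14 (interval -0.60 to 0.32, limma adjusted p = 0.99977), and the Aim2 KO libraries held both the lowest value and the highest. Chchd6, its paralog, was the least abundant of the 7, at 6.86, 7.18 and 7.85 FPKM in Aim2 KO and 8.02, 7.61 and 6.20 FPKM in WT. It had the narrowest interval, -0.27 to 0.29 around a log2 difference of 0.01 (limma adjusted p = 0.99977). Chchd6 stood at 9.11%, 5.92% and 6.34% of Chchd3 in Aim2 KO and at 6.54%, 6.66% and 5.71% in WT, with Aim2 KO replicate 1 above the rest.

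Samm50 encodes the channel of the SAM complex, which inserts barrel proteins into the outer membrane and anchors MICOS there. It was at 61.4, 82.2 and 78.6 FPKM in Aim2 KO and at 80.9, 90.3 and 74.2 FPKM in WT. The log2 difference was -0.15 (interval -0.48 to 0.19, limma adjusted p = 0.99977), and only Aim2 KO replicate 1 lay below the WT range. Opa1 was at 10.7, 15.1 and 14.5 FPKM in Aim2 KO and at 13.2, 13.8 and 14.2 FPKM in WT. Its log2 difference was -0.04 (interval -0.37 to 0.28, limma adjusted p = 0.99977), with Aim2 KO replicates 2 and 3 above all WT libraries and Aim2 KO replicate 1 below them.

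The 6 partners had a median log2 difference of -0.05, beside a median of 0.02 over all genes tested, and Chchd6 was the 1 partner above 0. Their intervals all spanned 0 and leave room for changes in either direction. On the log2 FPKM scale, Apoo minus the mean of its 6 partners' log2 values was -0.72, -0.44 and -0.60 in Aim2 KO replicates 1 to 3 and 0.16, 0.19 and 0.15 in WT replicates 1 to 3. Against the partners' median the values were -0.86, -0.62 and -0.75 in Aim2 KO and 0.047, 0.044 and -0.11 in WT. The Aim2 KO values lay below the WT values with either average, while the side of 0 on which a WT library fell depended on the average used. This difference from the partners rests on the values that chose Apoo and is given without a test.

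**Figure D2:**
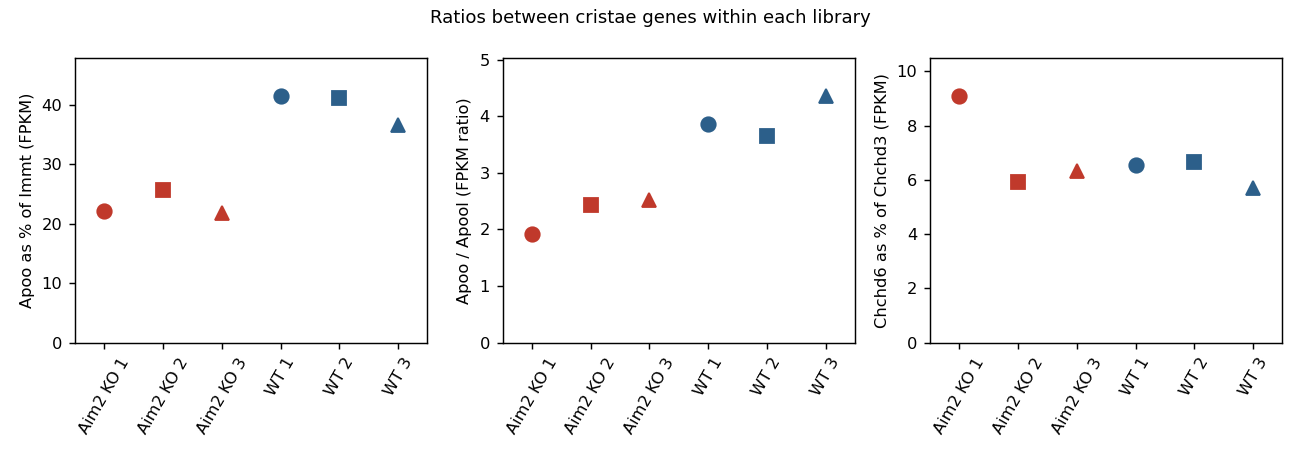
Ratios of FPKM values within each library (y axes from 0) for the 3 Aim2 KO libraries (red) and the 3 WT libraries (blue): Apoo as a percentage of Immt, Apoo over Apool, and Chchd6 as a percentage of Chchd3. Apoo was 21.9% to 25.6% of Immt in Aim2 KO and 36.6% to 41.6% in WT, and the Chchd6 to Chchd3 ratio overlapped between the groups.

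By mean FPKM, a scale that rests on the deposited gene lengths, the order was the same in both groups. Chchd3 came first, then Immt and Samm50, then Apoo, Opa1, Apool and Chchd6. Immt and Samm50 did not differ beyond their spread, at 81.7 ± 15.7 against 74.1 ± 11.1 FPKM in Aim2 KO and at 83.4 ± 2.80 against 81.8 ± 8.08 FPKM in WT. The SDs of Apool and Chchd6 likewise overlapped, at 8.26 ± 1.08 against 7.29 ± 0.505 FPKM in Aim2 KO and at 8.48 ± 1.46 against 7.28 ± 0.957 FPKM in WT. Within libraries, though, Apool stood above Chchd6 in all 6, most narrowly in Aim2 KO replicate 3, at 7.95 against 7.85 FPKM. Apoo stood above Opa1 in all 6 libraries, most narrowly in Aim2 KO replicate 1, at 14.1 against 10.7 FPKM.

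Aim2 KO replicate 1 stood apart in the amount of muscle RNA. All 12 genes of the skeletal muscle list were lowest there, and their mean log2(FPKM + 1) level was 8.28, 9.35 and 9.25 in Aim2 KO replicates 1 to 3 and 9.08, 9.36 and 9.13 in WT replicates 1 to 3. None of the 12 was at 0 in any library. Of the 12, 11 had negative log2 differences and 0 passed (median -0.23), and without this library 10 had positive ones (median 0.12). Myh1, a fast myosin heavy chain, was the 1 muscle gene whose groups did not overlap, at 467, 554 and 693 FPKM in Aim2 KO and 717, 966 and 723 FPKM in WT. Its part in the Apoo values was not tested. Among the 7 cristae organisers 5 were lowest in that library, beside 34.3% of all genes tested. They were Apoo, chosen for its low Aim2 KO level, and 4 of its 6 partners. Chchd3 was 36.3% below the mean of the other 5 libraries there, Immt 26.3%, Opa1 24.7% and Samm50 24.4%, while Apool was 14.1% and Chchd6 6.97% below. Over the 6 libraries, Pearson correlation with the muscle level was 0.972 for Immt, 0.955 for Opa1, 0.933 for Chchd3 and 0.926 for Samm50. It was 0.692 for Apoo, 0.571 for Apool and 0.316 for Chchd6. With the muscle level as a covariate, the Apoo log2 difference was -0.66. Whether the muscle level caused the values of this library was not tested.

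**Figure D3:**
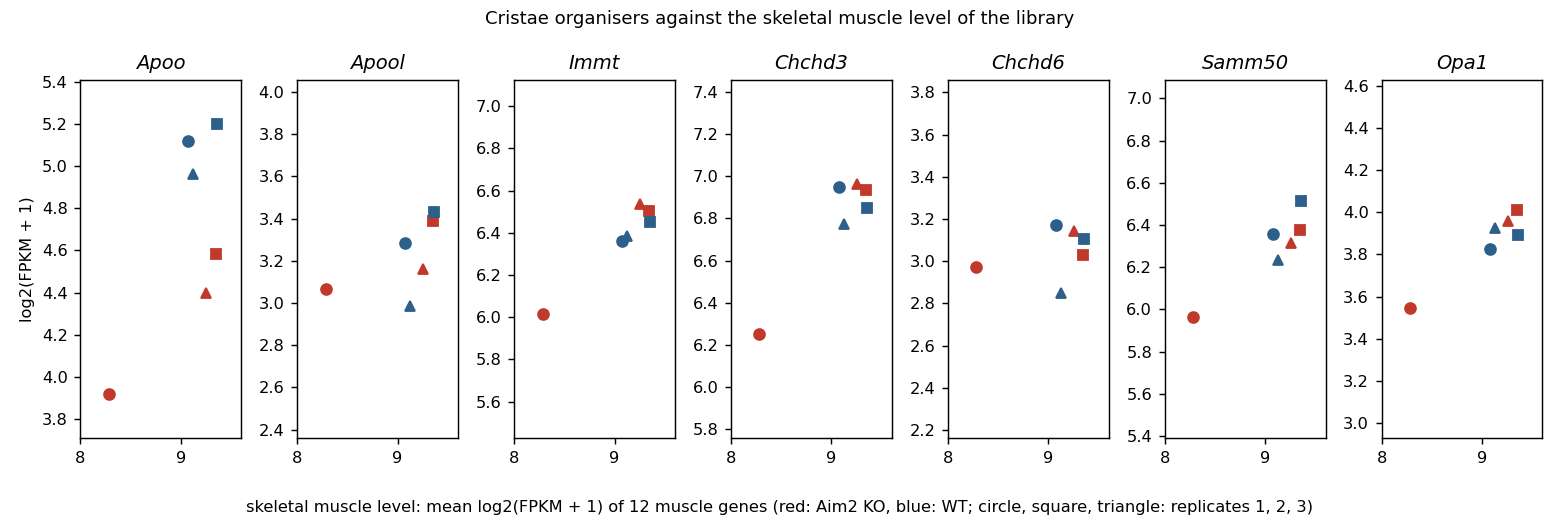
Level of each cristae organiser, log2(FPKM + 1) (y axis, of equal height in every panel), against the skeletal muscle level of the library (x axis, mean log2(FPKM + 1) of 12 muscle genes) for Aim2 KO (red) and WT (blue). Aim2 KO replicate 1 lies alone at a muscle level of 8.28, and at muscle levels of 9.08 to 9.36 the other two Aim2 KO libraries lie below WT for Apoo and among or above WT for Immt, Chchd3 and Opa1.

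Without Aim2 KO replicate 1, Apoo averaged 21.5 FPKM in Aim2 KO, 0.649 of the WT mean, and its log2 difference was -0.60. The mean muscle level of these 2 libraries lay within the WT range, although Myh1 was below WT in both. The differences of Apool, Immt, Chchd3 and Opa1 then turned positive, at 0.04, 0.12, 0.09 and 0.10, and that of Samm50 shrank to -0.02 (limma adjusted p from 0.888 for Immt to 0.986 for Samm50). The sign of 4 of the 6 partners' differences thus turned on leaving out Aim2 KO replicate 1. Other libraries mattered too. Apool also turned without WT replicate 2 (0.070), and Chchd6 turned without Aim2 KO replicate 3 (-0.039) or WT replicate 3 (-0.089). Reads from the mitochondrial genome took 4.02%, 5.57% and 5.98% of the library in Aim2 KO and 5.39%, 5.76% and 5.93% in WT, with Aim2 KO replicate 1 again lowest.

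Leukocyte markers separated the genotypes without passing the test. All 7 of the list (Ptprc, Coro1a, Laptm5, Cd53, Lcp1, Tyrobp and Cd74) had higher values in each Aim2 KO library than in any WT library, against 4.98% of all genes tested, and 0 of 7 passed the threshold (limma). None was at 0 in any library. Their mean level ran from 3.30 to 3.80 in Aim2 KO and from 2.65 to 2.77 in WT on the log2(FPKM + 1) scale, and their part in the Apoo values was not tested. Epithelial markers overlapped, with a mean level of 9.34 to 9.71 in Aim2 KO and 9.28 to 9.59 in WT. Fibroblast markers were at 2.40 to 4.10 in Aim2 KO and 2.97 to 3.65 in WT, and endothelial markers at 1.91 to 3.13 in Aim2 KO and 2.32 to 2.82 in WT. Schwann cell markers were at 2.22 to 3.78 in Aim2 KO and 3.01 to 3.64 in WT, and adipocyte markers at 1.63 to 2.10 in Aim2 KO and 1.87 to 2.31 in WT. The groups overlapped for each of these lists. The lowest value of the keratin gene Krt13 in any library was 14017 FPKM and that of the muscle actin gene Acta1 was 2111 FPKM, so markers of both main tongue tissues were present throughout.

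The rest of the MICOS and bridging machinery was examined as a list of 8 genes. It holds the remaining MICOS subunits, the metaxins and DNAJC11, which join SAM and MICOS into 1 bridge, and the cristae-linked membrane proteins TMEM11 and SLC25A46. All 8 were tested, 4 had positive and 4 negative log2 differences, and 0 passed (median -0.0034, range -0.13 to 0.04). Minos1, the subunit that bends the membrane at the neck of the fold, was at 30.2, 38.5 and 35.8 FPKM in Aim2 KO and at 38.0, 38.7 and 29.9 FPKM in WT. 2410015M20Rik, which encodes the subunit that joins the Minos1 and Immt arms, was at 80.6, 69.5 and 72.5 FPKM in Aim2 KO and at 84.8, 73.6 and 62.4 FPKM in WT. The groups overlapped for both genes and for each of the 8 listed. Mtx1, a metaxin of the outer membrane, had the smallest p of the list at 33.3 ± 3.71 FPKM in Aim2 KO and 36.5 ± 2.18 FPKM in WT (log2 difference -0.13, limma adjusted p = 0.99977). Mtx2, Mtx3, Dnajc11, Tmem11 and Slc25a46 had log2 differences of 0.03, -0.12, 0.04, -0.07 and 0.02.

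**Figure D4:**
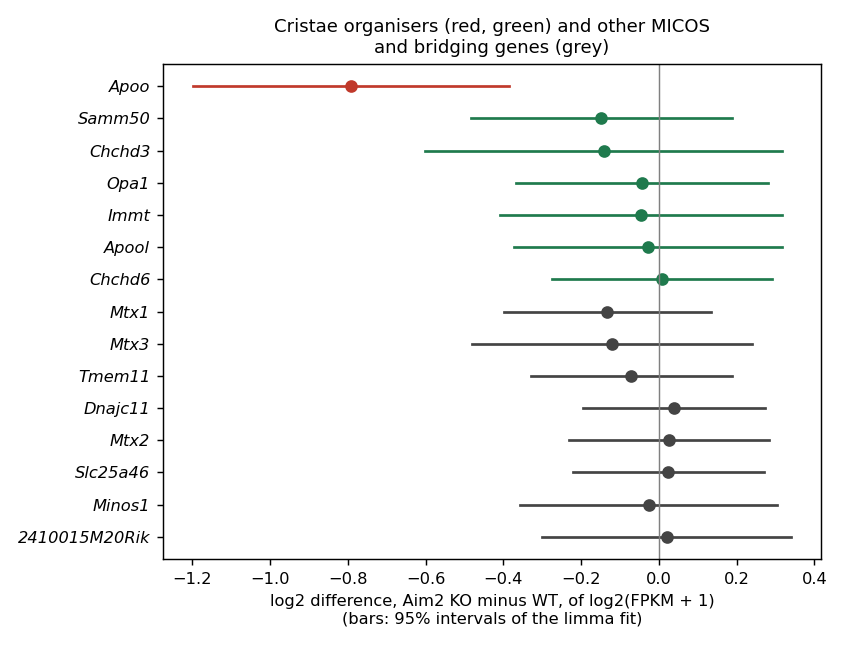
Log2 differences, Aim2 KO minus WT on the log2(FPKM + 1) scale (x axis), with 95% intervals of the limma fit, for the 7 cristae organisers (Apoo in red, its 6 partners in green) and the 8 other MICOS and bridging genes (grey). Apoo lies at -0.79, and the other 14 lie between -0.15 and 0.04 with intervals that span 0. Apoo was chosen on these values, so its interval is no test of the genotypes.

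Genes that process OPA1 or scaffold the inner membrane gave 5 positive and 3 negative differences among 8 tested, with 0 passing (median 0.05). Oma1, the stress-activated protease that cuts OPA1, was at 9.23 ± 2.74 FPKM in Aim2 KO and 10.3 ± 1.02 FPKM in WT. Yme1l1, the protease that also cuts OPA1 in unstressed mitochondria, had a log2 difference of 0.08 (interval -0.19 to 0.36). The prohibitin gene Phb2 was at 47.9 ± 1.27 FPKM in Aim2 KO and 45.5 ± 2.23 FPKM in WT, and Spg7, a matrix-facing protease subunit, at 20.7 ± 4.63 FPKM in Aim2 KO and 22.4 ± 1.66 FPKM in WT. The groups overlapped for all 8.

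Among genes of mitochondrial fusion and fission, 10 of 12 were tested, 3 with positive and 7 with negative differences, and 0 passed (median -0.07). Mfn2, a mitofusin of the outer membrane, was at 70.9 ± 19.8 FPKM in Aim2 KO and 84.2 ± 9.82 FPKM in WT, and Mfn1, the second mitofusin, at 30.7 ± 4.46 FPKM in Aim2 KO and 33.9 ± 3.54 FPKM in WT. Mtfp1, an inner membrane protein that promotes fission, was at 11.8, 28.0 and 26.8 FPKM in Aim2 KO and at 27.9, 31.5 and 23.1 FPKM in WT. Of the 10 tested, 7 were lowest in Aim2 KO replicate 1, and without that library 6 of the 10 differences were positive. Mtfr1, a regulator of fission, was at 19.9 ± 1.30 FPKM in Aim2 KO and 18.7 ± 0.605 FPKM in WT.

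Cardiolipin, the lipid that Apool binds, is made by a short pathway whose 10 genes were all tested. Of these 7 had positive and 3 negative differences, with 0 passing (median 0.04, range -0.08 to 0.14). Pgs1, which makes the phosphatidylglycerol precursor, was at 13.8 ± 0.845 FPKM in Aim2 KO and 13.2 ± 0.427 FPKM in WT. Lclat1, an acyltransferase that remodels cardiolipin, was at 3.96 ± 0.410 FPKM in Aim2 KO and 3.48 ± 0.269 FPKM in WT, and Cds1, a CDP-diacylglycerol synthase, at 14.6 ± 0.866 FPKM in Aim2 KO and 13.5 ± 1.01 FPKM in WT. Triap1, part of the carrier that brings the precursor lipid inward, was at 24.0 ± 2.70 FPKM in Aim2 KO and 25.4 ± 2.17 FPKM in WT. The groups overlapped for each of the 10 genes. Their mean log2(FPKM + 1) level was 3.60, 3.62 and 3.61 in Aim2 KO and 3.58, 3.56 and 3.59 in WT, without overlap. An exact permutation test over the libraries gave p = 0.1, the smallest it can give. Mean levels of the other mitochondrial lists overlapped between the groups.

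ATP synthase subunits that form dimers bend the rims of the cristae, opposite the MICOS necks. All 10 genes of that list were tested, 2 with positive and 8 with negative differences, and 0 passed (median -0.07). Atp5l, the g subunit of the dimer interface, was at 375 ± 25.7 FPKM in Aim2 KO and 428 ± 53.2 FPKM in WT. Atp5j, a subunit of the peripheral stalk, was at 167 ± 32.3 FPKM in Aim2 KO and 191 ± 31.8 FPKM in WT. Atp5f1, another stalk subunit, was at 179 ± 30.9 FPKM in Aim2 KO and 192 ± 18.2 FPKM in WT, and Atpif1, the inhibitor of the enzyme's reverse reaction, at 12.5 ± 1.93 FPKM in Aim2 KO and 11.8 ± 2.24 FPKM in WT. Without Aim2 KO replicate 1 the median was 0.02 and 7 of the 10 differences were positive.

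A list of proteins with a CHCH domain, as Chchd3 and Chchd6 have, and of import factors of the intermembrane space gave 2 positive and 9 negative differences among 11 tested, with 0 passing (median -0.05, and -0.08 without Aim2 KO replicate 1). Chchd10, which is abundant in muscle, was at 323 ± 77.7 FPKM in Aim2 KO and 401 ± 93.6 FPKM in WT. Chchd1, a mitoribosome subunit, was at 43.3 ± 7.29 FPKM in Aim2 KO and 53.9 ± 10.4 FPKM in WT, with groups that overlapped. Chchd7 and Chchd5 had log2 differences of -0.12 and 0.19. The outer membrane list, of import and channel proteins, had 4 positive and 5 negative differences among 9 tested, and 0 passed. Tomm5, a small subunit of the import pore, was at 67.9 ± 8.46 FPKM in Aim2 KO and 80.1 ± 8.30 FPKM in WT. Vdac1, the main channel of the outer membrane, was at 427 ± 69.8 FPKM in Aim2 KO and 477 ± 47.1 FPKM in WT, and Vdac2 at 85.2 ± 5.15 FPKM in Aim2 KO and 93.2 ± 3.28 FPKM in WT. Tomm70a, an import receptor, had a log2 difference of 0.09.

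Markers of mitochondrial content and its regulators gave 4 positive and 8 negative differences among 12 tested, with 0 passing (median -0.09, and 0.06 without Aim2 KO replicate 1, in which 9 of the 12 were lowest). Ppargc1a, the coactivator that drives mitochondrial biogenesis, was at 2.05, 4.57 and 6.09 FPKM in Aim2 KO and at 4.12, 8.10 and 5.58 FPKM in WT. Esrra, a nuclear receptor that it activates, was at 50.5 ± 9.09 FPKM in Aim2 KO and 57.8 ± 6.70 FPKM in WT. Gabpa and Nrf1, transcription factors of nuclear genes for mitochondrial proteins, were at 10.1 ± 0.817 and 6.90 ± 0.760 FPKM in Aim2 KO and at 8.99 ± 0.641 and 6.16 ± 0.779 FPKM in WT. The groups overlapped for all 12. By its name Apoo is set beside the apolipoproteins. Of the 8 listed, which include the untested pseudogene Apoo-ps, 4 were tested, 3 with positive differences and 0 passing. Apoe was at 91.9 ± 15.6 FPKM in Aim2 KO and 91.5 ± 15.5 FPKM in WT. Apol6, Apoc1 and Apod had log2 differences of -0.18, 0.08 and 0.05.

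Because Apoo is X-linked, its neighbours were read next. The nearest tested genes on the left were Eif2s3x (154 kb away), which encodes a translation initiation factor subunit, Zfx (243 kb), which encodes a zinc finger transcription factor, and Pdk3 (535 kb), which encodes a pyruvate dehydrogenase kinase. Their log2 differences were 0.07, 0.07 and 0.09. On the right, Maged1 (118 kb), Amer1 (1003 kb) and Asb12 (1053 kb) had -0.02, 0.08 and -0.23, and the groups overlapped for all 6. The 17 other tested genes that start within 5 Mb of Apoo had log2 differences from -0.23 to 0.31. Among 352 X-linked genes tested, 151 had negative differences (median 0.03), and Apoo had the lowest value, as a description of the gene chosen.

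All 6 libraries carried transcripts of the Y-linked genes Ddx3y, Uty, Kdm5d and Eif2s3y, and hardly any Xist, the RNA of the inactive X. Ddx3y was at 11.0, 14.1 and 13.8 FPKM in Aim2 KO and at 14.6, 12.9 and 11.0 FPKM in WT. Xist was at 0, 0.00901 and 0.0128 FPKM in Aim2 KO and at 0, 0.00232 and 0.00222 FPKM in WT. All libraries thus had the male pattern of these genes.

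**Figure D5:**
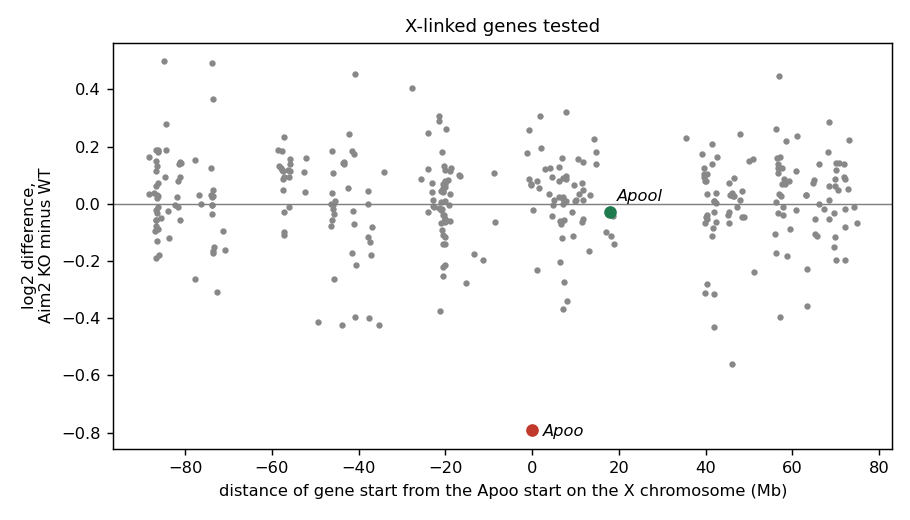
Log2 difference, Aim2 KO minus WT (y axis), of the 352 X-linked genes tested against the distance of the gene start from the Apoo start (x axis, Mb). Apoo (red) lies at -0.79, genes within 5 Mb of it between -0.23 and 0.31, and Apool (green), 17.9 Mb away, at -0.03.

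The genes whose levels over the 6 libraries were most like Apoo were found by Pearson correlation of log2(FPKM + 1), among named genes. They were Nprl3 (r = 0.968), a subunit of the GATOR1 complex, Lor (0.961), the cornified envelope protein loricrin, Far2 (0.959), a fatty acyl-CoA reductase, U2af1l4 (0.959), a splicing factor, Bag1 (0.956), a cochaperone, and Vgll2 (0.949), a cofactor of muscle transcription. The 6 libraries share 1 genotype contrast and the low muscle level of Aim2 KO replicate 1, so such values are a description. Lor was at 1856, 2131 and 1915 FPKM in Aim2 KO and at 2707, 2864 and 2547 FPKM in WT, and Vgll2 at 4.81, 6.84 and 6.79 FPKM in Aim2 KO and 7.99, 10.3 and 8.93 FPKM in WT. None of the 6 is a partner of Apoo in this group. Of the partners, Samm50 ranked 297 of 12143 genes in likeness to Apoo (r = 0.792), Chchd3 ranked 1068 and Chchd6 ranked 4571. Immt, Chchd3 and Opa1 were closer to each other, with r = 0.942 for Immt and Chchd3 and r = 0.969 for Immt and Opa1, and all 3 were lowest in Aim2 KO replicate 1.

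The 250 bases before each gene's start (RefSeq, GRCm38.p6) were read for 3 motifs of mitochondrial gene regulators, on both strands. The NRF1 motif was searched as GCGC, any pair of bases and GCGC again, the GABP motif as CCGGAAG and the ERR motif as TCAAGGTCA. Opa1 alone of the 7 held the NRF1 motif, which 5.09% of 27025 promoters hold, and Chchd3 and Immt held the GABP motif, which 7.05% hold. The ERR motif, present in 0.366%, was in none of the 7. None of these motifs was in the Apoo, Apool, Chchd6 or Samm50 windows, which says nothing of binding. The Apoo window (chrX:94366860-94367109) held 20 CpG dinucleotides, beside a median of 6 over all promoters. The partners' windows held 15 in Immt, 14 in Samm50, 13 in Opa1, 10 in Chchd3 and 8 in each of Apool and Chchd6, so all 7 were above that median. It is printed because Apoo is the gene that stood apart from its partners, and the stretches of 60 bases from Opa1 (chr16:29579250-29579309, plus strand), Immt (chr6:71831176-71831235, plus strand) and Chchd3 (chr6:33060356-33060415, minus strand) show the matches in capitals.
Apoo: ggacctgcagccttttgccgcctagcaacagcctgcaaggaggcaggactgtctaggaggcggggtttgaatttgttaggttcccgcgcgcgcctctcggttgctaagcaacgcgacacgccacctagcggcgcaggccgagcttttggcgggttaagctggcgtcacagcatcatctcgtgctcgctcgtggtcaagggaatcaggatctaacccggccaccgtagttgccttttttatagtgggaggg
Opa1: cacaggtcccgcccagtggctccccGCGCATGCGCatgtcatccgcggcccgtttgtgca
Immt: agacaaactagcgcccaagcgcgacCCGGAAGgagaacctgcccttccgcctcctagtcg
Chchd3: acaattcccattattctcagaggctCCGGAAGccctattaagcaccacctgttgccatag

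The table names no build, and the coordinates of 5 of the 7 genes equal those of GENCODE M21 (GRCm38), while Immt and Samm50 differ from it at their ends. The deposited positions of the other members follow. Apool lies on chromosome X from 112311334 to 112372755 (plus strand), Immt on chromosome 6 from 71831331 to 71875257 (plus), Chchd3 on chromosome 6 from 32790976 to 33060260 (minus) and Chchd6 on chromosome 6 from 89383146 to 89595652 (minus). Samm50 lies on chromosome 15 from 84192233 to 84214303 (plus) and Opa1 on chromosome 16 from 29579334 to 29654884 (plus). The table lists 1 gene that overlaps a member, the antisense gene Gm14540 at the Chchd3 locus, which did not exceed 0.0419 FPKM in any library. In a search of all GENCODE M21 transcripts, Immt also shared stretches of 315 bases at 94.9% identity and 185 bases at 100.0% identity with 2 other annotated genes, and Samm50 shared 118 bases at 99.2% with 1, so a small part of their reads may be uncertain.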

How the data were processed

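Bulk RNA sequencing of 6 tongue libraries (3 Aim2 KO, 3 WT) was analysed from 1 table. The authors deposited FPKM values for 35275 genes, 1 column per library, named as such per the file name, and the libraries were built by a sequencing company per the labels' protocols. Which aligner, counter and build were used, and what was done with reads that match several places, is not given in the sources used here. Deposited FPKM values multiplied by the gene length and divided by a step found for each library came out whole for 100% of values, to a tolerance of 0.01 reads, with totals of 21959204 to 25369400 reads per library. Gene coordinates were compared with GENCODE M21.

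Libraries were grouped by genotype as labelled. The test was limma 3.58.1 under R 4.3.3, with its variance trend, run on log2(FPKM + 1), a scale that understates changes of low genes, over the 12144 genes whose mean reached 1 FPKM, two-sided, with Benjamini-Hochberg adjustment over all of them and a threshold of 0.05. The code was tested on simulated data. The members and gene lists were chosen with earlier results of these data known. Genes named were the 7 members, the list of other MICOS and bridging genes, up to 4 genes with the smallest p of each other mitochondrial list, the 6 most like Apoo, 3 neighbours on each side, Aim2 and the sex-linked markers. Apoo-ps, Gm14540, Krt13, Acta1, Myh1 and the leukocyte markers were named outside this rule, after their values were seen. Alternatives were other pseudocounts, filters and scalings, voom on the recovered reads, sample weights, a muscle covariate, the replicate number as a block and leaving out each library.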

Additional observations from a re-analysis of the deposited data

How the results depend on the processing

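Apoo was lower in Aim2 KO under all 16 alternatives, with log2 differences from -0.93 to -0.60 (limma adjusted p from 0.0362 to 0.99998, beside 0.882 in the main fit). It passed the threshold under 1 of them, limma's library weights, at -0.70 (adjusted p = 0.0362), which gave 1 of 7 members called. Apoo was chosen on these values, so this p is no independent support. The library weights were 0.241, 0.754 and 4.18 for Aim2 KO replicates 1 to 3 and 1.53, 1.01 and 0.851 for WT replicates 1 to 3. The Aim2 KO side of that fit thus rested mostly on replicate 3. Genes called higher, 1 in all, were 0 with no filter, with a filter at 0.1 FPKM, after rescaling to TPM and with the replicate block, 65 with library weights and 14 with a skeletal muscle covariate. Leaving out a library gave 0 to 12, with 12 without Aim2 KO replicate 1. Genes called lower, 0 in all, were 3 with library weights, 1 with the muscle covariate and 0 to 2 on leaving out a library, with 2 without Aim2 KO replicate 1. Voom on the recovered reads called 1 gene higher and 0 lower. The cause was not tested.

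Signs of small differences turned, none past the threshold. With the muscle covariate the log2 differences were 0.031 for Apool, 0.062 for Immt, 0.049 for Opa1, -0.013 for Mtx2, 0.042 for Minos1, -0.021 for 2410015M20Rik, 0.067 for Maged1. With library weights they were 0.12 for Immt, 0.049 for Chchd3, 0.075 for Opa1, -0.053 for Mtx2, -0.055 for 2410015M20Rik, 0.017 for Spg7, -0.0044 for Atpif1, 0.025 for Ppargc1a, 0.099 for Maged1. Median-of-ratios scaling gave -0.024 for Chchd6, -0.0069 for Mtx2, -0.0083 for Slc25a46, -0.016 for 2410015M20Rik. Leaving out each library gave ranges in which the sign changed, Apool -0.15 to 0.070, Immt -0.14 to 0.12, Chchd3 -0.26 to 0.090, Chchd6 -0.089 to 0.074, Opa1 -0.13 to 0.10, Mtx3 -0.19 to 0.00014, Mtx2 -0.036 to 0.091, Slc25a46 -0.038 to 0.071, Minos1 -0.14 to 0.070, 2410015M20Rik -0.092 to 0.13, Oma1 -0.35 to 0.051, Spg7 -0.24 to 0.058, Mtfp1 -0.58 to 0.0082, Triap1 -0.14 to 0.011, Atp5f1 -0.20 to 0.039, Atpif1 -0.070 to 0.17, Pdk3 -0.018 to 0.15, Zfx -0.033 to 0.16, Maged1 -0.16 to 0.096, Amer1 -0.017 to 0.20. Samm50 kept its sign under all 16.

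The replicate numbers do not pair the libraries by their labels. Deviations from the group mean correlated at 0.351, 0.458 and 0.0302 between same-numbered Aim2 KO and WT libraries. Between Aim2 KO and WT libraries of different number they correlated at -0.465 to 0.213. The replicate block changed the call of no member. List values without Aim2 KO replicate 1 were computed after seeing the data. With 3 libraries a group, an exact permutation test cannot go below 0.1.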
